A study of Mus musculus with 14 samples.

Results

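Plasminogen activators and the proteins that restrain or anchor them were followed in mouse macrophages in which Wdr82 had been knocked down. The 6 genes were Plau, Plat, Plaur, Serpinb2, Serpine2 and Thbs1, chosen by name and found by gene identifier among 21761 genes with exon counts. Of 1107 additional regions counted outside or at the ends of genes, 8 carry the name of 1 of these genes in the authors' deposited annotation, 7 of them Thbs1 and 1 Plau. All 6 genes passed the filter on low exon counts, and 5 passed that on intron counts.

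The cells were bone marrow-derived macrophages of FVB/Hsd mice, taken on day 7 of differentiation in medium with L929-conditioned supernatant. They had been infected with retroviruses carrying a short hairpin RNA and selected with puromycin, controls included. The libraries used here were made from ribosomal RNA-depleted total RNA of cells given no treatment, and there were 2 for each group. The controls carried a scrambled hairpin (scrambled 1 and scrambled 2). The Wdr82 group had 1 library for each of 2 hairpins, sh1137 and sh830. The other 10 of the 14 samples, among them those given lipopolysaccharide, were not analysed here. Nothing in the labels says that the libraries came from separate cultures or animals. The p-values measure only the spread that the model's terms leave between these libraries, which may be technical. The library term described below sets sh1137 with scrambled 1 and sh830 with scrambled 2. In fits with it, a difference between the hairpins that matches the one between the controls is taken up by that term. Only the rest of the hairpin difference is part of the spread.

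Plasminogen is an inactive precursor that urokinase (Plau) and tissue-type plasminogen activator (Plat) cut into plasmin, a protease that dissolves fibrin and degrades matrix. Urokinase is held at the cell surface by its receptor (Plaur), and serpins stop the activators by trapping them in an inactive complex. Macrophages are known for making urokinase and, on stimulation, the serpin PAI-2 (Serpinb2). Wdr82 is a subunit of SET1 histone methyltransferase complexes and of a phosphatase complex that acts in transcription termination.

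Exon counts of genes summed to 34787556 to 43372731 in the 4 libraries. Introns took 40.4% of the exon plus intron counts in scrambled 1 and 44.2% with sh1137, against 14.6% in scrambled 2 and 15.2% with sh830. The model therefore had a term for this split beside the group term. Wdr82 exon counts per 1e6 (CPM, scaled by TMM factors) were 100.3 and 144 in the controls, against 25.1 for sh1137 and 40.7 for sh830. With the library term the log2 fold change was -1.91 ± 0.094 (SE, adjusted p = 0.0022), and the adjusted p was 0.44 with the group term alone. In 3 libraries with the group term alone, it was 0.224 without scrambled 2 and 0.0717 without sh1137 (log2 fold changes -1.58 and -1.59). The 8 macrophage markers were between 41.5 and 9210 CPM in every library. With the library term 3 of the 8 fell and 0 rose, beside 7.79% of all genes as falls and 6.06% as rises. These were Cd68 (log2 fold change -0.94, adjusted p = 0.0085), Fcgr1 (-1.51, adjusted p = 0.0031) and Cx3cr1 (-1.49, adjusted p = 0.0279). Csf1r, Adgre1, Cd14, Lyz2 and Mertk did not pass. Adjusted p-values come from quasi-likelihood tests in edgeR, adjusted by Benjamini and Hochberg's method over all genes and regions, and "rose" or "fell" stands for an adjusted p under 0.05. With the group term alone, 0 genes and 0 regions passed in edgeR, where 437 genes had an unadjusted p under 0.05 with a higher value and 209 with a lower one. DESeq2 with the group term alone called 152 genes higher and 22 lower. Every call below rests on the library term unless another fit is named.

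Of the 6 genes, Serpinb2 rose and Plau fell in exon counts. Among all 13884 genes tested, 13.8% passed, 6.06% as rises and 7.79% as falls, against 2 of these 6. Serpine2 and Thbs1 had higher group means with Wdr82 knockdown and missed the threshold, both hairpin values of Plaur lay between the controls, and those of Plat lay on both sides of them. Per kilobase of annotated exon, the scrambled means ran from Plau at 254 CPM per kb through Plaur at 39.7 and Thbs1 at 5.33 to Serpinb2 at 0.480. Serpine2 at 0.156 and Plat at 0.125 CPM per kb followed, and the ranges of the last 3 overlapped their neighbours in this order. With Wdr82 knockdown the order was Plau at 189, Plaur at 37.9, Thbs1 at 18.6, Serpinb2 at 5.82, Serpine2 at 0.569 and Plat at 0.111 CPM per kb. In those libraries the range of Thbs1 overlapped that of Serpinb2, and the range of Serpine2 that of Plat.

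**Figure D1:**
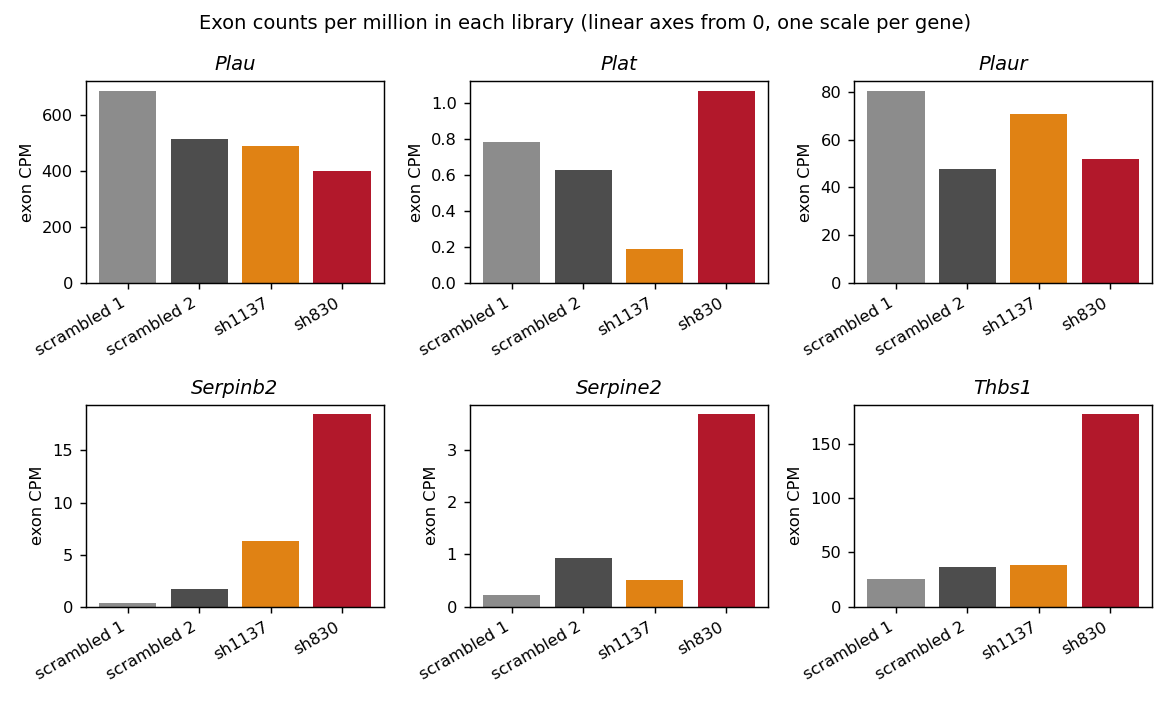
Exon CPM of each of the 6 genes (y axis, linear from 0, a separate scale for each gene) in scrambled 1, scrambled 2, sh1137 and sh830 (x axis). Each bar is 1 library. Serpinb2 is higher in both hairpin libraries, Plau is lower in both, and the high bar of Thbs1 and of Serpine2 is sh830.

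The reference table holds promoters of 3 of these genes, and none of Plau, Plat and Thbs1. Among the 3, Serpinb2 rose, while Plaur and Serpine2 were not called, Serpine2 at a low level that was highest in sh830. The promoter sequences of these 3 are printed. They are the 250 bases before an annotated start in RefSeq on build GRCm38.p6, at chr1:107511173-107511422 (plus strand), chr7:24462233-24462482 (plus strand) and chr1:79858666-79858915 (minus strand), written 5′ to 3′ on the gene's strand. Capitals mark matches to the AP-1 motif TGANTCA and to the TATA box letters TATAAA.
Serpinb2: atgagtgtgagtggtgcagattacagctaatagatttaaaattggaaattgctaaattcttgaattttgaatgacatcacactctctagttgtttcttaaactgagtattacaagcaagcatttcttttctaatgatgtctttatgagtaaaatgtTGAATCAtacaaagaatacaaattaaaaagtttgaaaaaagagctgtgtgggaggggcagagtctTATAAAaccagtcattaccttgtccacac
Plaur: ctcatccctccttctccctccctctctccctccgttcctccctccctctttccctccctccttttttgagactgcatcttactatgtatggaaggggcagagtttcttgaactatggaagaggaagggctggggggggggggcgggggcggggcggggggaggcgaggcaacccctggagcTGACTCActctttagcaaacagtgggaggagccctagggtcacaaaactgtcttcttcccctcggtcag
Serpine2: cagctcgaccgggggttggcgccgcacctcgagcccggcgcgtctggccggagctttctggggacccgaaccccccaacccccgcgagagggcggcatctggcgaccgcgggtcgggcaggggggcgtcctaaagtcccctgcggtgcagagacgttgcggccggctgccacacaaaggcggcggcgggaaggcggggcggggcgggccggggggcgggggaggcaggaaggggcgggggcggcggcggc

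The motifs were searched on both strands in windows from 250 bases before to 50 bases after each start. TGANTCA was found in 7.81% of all 32851 windows and TATAAA in 13.6%, and the 2 motifs share no match in these 3 windows. Serpinb2 and Plaur each hold 1 AP-1 match, and only Serpinb2 of the 3 holds TATAAA. The Serpine2 window holds neither set of letters, which says nothing about any factor. A second Serpinb2 start in the table lies downstream and its window overlaps the one printed. The GC content of the windows was 35.3% for Serpinb2, 59.3% for Plaur and 77.7% for Serpine2, against a median of 52.7% over all windows. Serpinb2 and Plaur share an AP-1 match and differ in the data: the exon counts of Serpinb2 rose and those of Plaur did not pass the test. These matches are a description of the letters and not of binding.

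Plau encodes urokinase, the activator that macrophages secrete (identifier 18792; mm9 chromosome 14, 21655884 to 21662610, plus strand). It was by far the most abundant of the 6 genes, with 28169 and 20587 exon counts in scrambled 1 and 2, then 18417 in sh1137 and 16985 in sh830. In CPM these are 689 and 516 against 491 and 402. Both hairpin libraries lay below both controls, and the gap between scrambled 2 and sh1137 was small beside the spread within the groups. From a scrambled mean of 603 ± 122 CPM to 447 ± 62.9 CPM (SD, n = 2 each), Plau fell by 0.42 ± 0.097 on the log2 scale (SE, adjusted p = 0.0426). In bulk RNA, fewer expressing cells and less RNA per cell cannot be told apart. The call lies close to the threshold. It was lost with upper-quartile factors (log2 fold change -0.34, adjusted p = 0.0696), with a filter of at least 1 CPM in 2 libraries (-0.38, adjusted p = 0.0502) and when any library was left out with the group term alone, where the log2 fold changes were -0.22 without scrambled 1, -0.59 without scrambled 2, -0.59 without sh1137 and -0.28 without sh830. The intron counts of Plau had 127 and 134 CPM in the controls and 88.1 and 111 CPM with sh1137 and sh830, again without overlap. Their log2 fold change of -0.40 ± 0.10 missed the threshold (adjusted p = 0.0557). The macrophage markers Cd68, Fcgr1 and Cx3cr1 fell in the same libraries, and their part in the Plau value was not tested.

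A 13000 bp region named for the start of Plau (mm9 chromosome 14, 21643000 to 21655999) overlaps the first 116 bp of the gene. It had 103 and 93 counts in scrambled 1 and 2, then 334 in sh1137 and 140 in sh830. Both hairpin libraries were above both controls, sh1137 more than sh830, whereas the exons of the gene were below both controls in both. The log2 fold change was 1.18 ± 0.38 (SE, adjusted p = 0.0903), so it was not called. The regions carry no strand in the annotation, and the authors chose them on a hairpin against vector comparison of untreated cells, so their direction is not independent evidence.

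Plat, the tissue-type activator that acts mainly on fibrin, was near the lower limit of the counts (identifier 18791; mm9 chromosome 8, 23868216 to 23893320, plus strand). It had 32 and 25 exon counts in scrambled 1 and 2, then 7 in sh1137 and 45 in sh830, or 0.783, 0.627, 0.187 and 1.07 CPM. The hairpin libraries enclosed the controls: sh1137 was the lowest and sh830 the highest of the 4. The log2 fold change of -0.44 ± 0.76 was smaller than its standard error (adjusted p = 0.724). It was 0.59 without sh1137 and -1.88 without sh830, the 2 hairpins going opposite ways. The introns of Plat held 8, 0, 10 and 2 counts in scrambled 1, scrambled 2, sh1137 and sh830 and were not tested.

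Plaur, the receptor that concentrates urokinase on the cell surface, was the second most abundant per kilobase (identifier 18793; mm9 chromosome 7, 25247519 to 25260892, plus strand). Its exons had 80.4 and 47.7 CPM in scrambled 1 and 2, then 70.5 CPM in sh1137 and 51.8 CPM in sh830. The values followed the intron-rich and intron-poor pairs of libraries and not the groups, which overlapped. The log2 fold change was -0.04 ± 0.11 (SE, adjusted p = 0.839), and its sign changed with upper-quartile factors, where it was 0.05. Introns gave 84.3, 69.1, 79.7 and 60.8 CPM in the same order, with a log2 fold change of -0.13 (adjusted p = 0.426). The receptor thus showed no called change in either kind of interval.

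Serpinb2, the gene of the serpin PAI-2 that inhibits urokinase, had the largest change of the 6 (identifier 18788; mm9 chromosome 1, 109408000 to 109422177, plus strand). It had 16 and 66 exon counts in scrambled 1 and 2, then 237 in sh1137 and 779 in sh830, or 0.391, 1.66, 6.32 and 18.5 CPM. Both hairpin libraries were above both controls, and within each group the intron-poor library was the higher one. Within the pairs of like intron share, sh1137 was 16.2 times scrambled 1 and sh830 was 11.1 times scrambled 2. Serpinb2 rose by 3.69 ± 0.26 on the log2 scale (SE, adjusted p = 0.00465), from group means of 1.02 ± 0.894 CPM to 12.4 ± 8.58 CPM (SD, n = 2 each). It passed in 11 of 15 tested alternatives. The exceptions were the group term alone (log2 fold change 3.60, adjusted p = 0.506), the crossed library term (3.69, 0.0862), and the fits without scrambled 1 (2.89, 0.0565) and without sh830 (2.62, 0.112).

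Intron counts of Serpinb2 moved with its exons. They were 6 and 0 in scrambled 1 and 2, then 133 in sh1137 and 60 in sh830, or 0.253, 0, 5.52 and 6.59 CPM of the intron counts. On this scale the hairpin libraries were close to each other, unlike in the exons. Serpinb2 was the only 1 of 5 tested genes here whose introns passed. Among all 12405 genes 9.90% passed, 5.97% as rises and 3.93% as falls. The introns of Serpinb2 entered the test through the hairpin libraries alone, as both controls lay under the limit of the filter. The call is therefore not independent of the level in that group. The rise was 4.98 ± 0.63 on the log2 scale (SE, adjusted p = 0.00877). With the group term alone it missed the threshold, at 5.09 with all libraries (adjusted p = 0.295) and at 4.53 without scrambled 2, the library with no intron count (adjusted p = 0.164). It passed with the group term alone in the fits without scrambled 1 (adjusted p = 0.0022), without sh1137 (0.00054) and without sh830 (0.00091), and in DESeq2 with the group term alone (2.1e-05). Introns held 27.3% of the Serpinb2 counts in scrambled 1 (95% Wilson interval 13.2 to 48.2%), 35.9% with sh1137 (31.2 to 41.0%) and 7.15% with sh830 (5.60 to 9.10%). In scrambled 2 they held 0 of 66, which allows a share of up to 4.55%. These intervals cover counting error only. The difference between intron and exon change, tested as an interaction, was 1.22 ± 0.70 on the log2 scale (adjusted p = 0.403).

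Serpine2 encodes protease nexin-1, a serpin of thrombin, urokinase and tissue-type activator that many stromal cells secrete (identifier 20720; mm9 chromosome 1, 79790896 to 79855240, minus strand). Its exons held 9 and 37 counts in scrambled 1 and 2, then 19 in sh1137 and 155 in sh830, or 0.220, 0.928, 0.507 and 3.67 CPM. The groups overlapped, since sh1137 lay between the controls, and sh830 stood above the other 3 libraries. The log2 fold change was 1.69 ± 0.43 (SE, adjusted p = 0.0537), and it was -0.18 without sh830. Its adjusted p was 0.0480 with intron share as a numeric covariate, 0.0470 with no filter on low counts, and 0.0347 in edgeR's newer form of the test, an alternative chosen after seeing the data. The introns, over a far longer stretch, held only 5, 6, 4 and 14 counts and gave a log2 fold change of 0.50 (adjusted p = 0.720).

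The sum of the markers of fibroblasts and stromal cells was also highest in sh830. Their 8 genes summed to 9.66 CPM in scrambled 1, 42.7 in scrambled 2, 44.2 with sh1137 and 147 with sh830. Col1a1, a collagen chain, had 0.0978, 9.26, 0.774 and 53.3 CPM in these libraries, and Dcn, a matrix proteoglycan, 0.0489, 0.652, 0.0534 and 4.17 CPM. Pdgfrb made up most of the sum in sh1137, at 42.3 CPM, and was lower in sh830, at 37.3 CPM. It had 8.63 and 9.58 CPM in scrambled 1 and 2. Of the 6 markers tested, 2 rose, beside 6.06% of all genes. They were Col1a1 and Pdgfrb (log2 fold changes 2.58 and 2.13, adjusted p = 0.00475 and 0.00395). Lum was at 0 in scrambled 1 and in both hairpin libraries, and Thy1 at 0 in both scrambled libraries. The intron-poor library of each group thus had the higher collagen counts, and Serpine2, Serpinb2 and Thbs1 exons were also higher in that library of each group. The part of these cells in the values of Serpine2, Serpinb2, Plat and Thbs1 was not tested. Macrophage markers summed to 9302, 11360, 7458 and 14128 CPM in the same order, with Lyz2 as the largest part in each library, so the sum does not show the falls of Cd68, Fcgr1 and Cx3cr1.

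**Figure D2:**
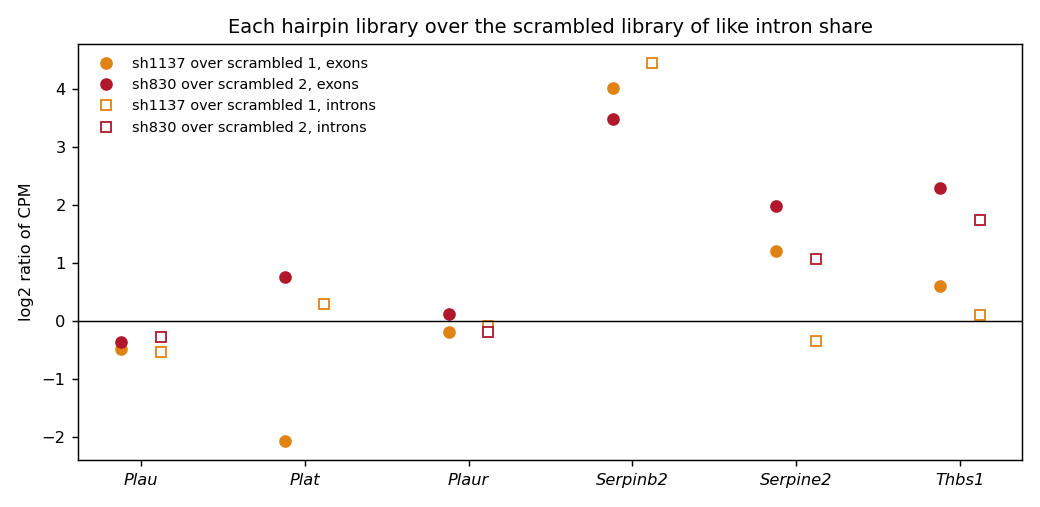
Log2 ratio of CPM (y axis) of sh1137 over scrambled 1 and of sh830 over scrambled 2 for each of the 6 genes (x axis), with filled circles for exons and open squares for introns. Both exon ratios are above 0 for Serpinb2, Serpine2 and Thbs1 and below 0 for Plau, and those of Plat and Plaur lie on both sides. A ratio against a library with 0 intron counts is not drawn (sh830 for Serpinb2 and Plat).

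Thbs1 encodes thrombospondin-1, a secreted matrix protein that binds CD36 and CD47 and releases TGF-beta from its latent form (identifier 21825; mm9 chromosome 2, 117937658 to 117952869, plus strand). Its exons had 1041 and 1450 counts in scrambled 1 and 2, then 1445 in sh1137 and 7481 in sh830, or 25.5, 36.4, 38.6 and 177 CPM. The groups did not overlap, but sh1137 lay just above scrambled 2, and sh830 was 4.60 times sh1137. Against the library of like intron share, sh1137 was 1.51 times and sh830 was 4.87 times the control. The log2 fold change was 1.46 ± 0.39 (SE, adjusted p = 0.0603), so Thbs1 was not called. With no filter on low counts it was (1.45, adjusted p = 0.0321). Without sh1137 it was 2.51 (adjusted p = 4.43e-05), and without sh830 it was 0.33 (adjusted p = 0.919). Intron counts were 33, 25, 36 and 93 in scrambled 1, scrambled 2, sh1137 and sh830, with a log2 fold change of 0.95 ± 0.47 (adjusted p = 0.246). The megakaryocyte and platelet markers, from cells known for storing thrombospondin-1, summed to 5.60, 3.11, 16.2 and 10.9 CPM. Of them Ppbp, a platelet chemokine, had 0.978, 0.426, 8.67 and 6.35 CPM and rose by 3.48 ± 0.32 on the log2 scale (adjusted p = 0.00685). Gp1ba stood at 1.00 (adjusted p = 0.0566), Itga2b at 0.06, and Pf4 was at 0 in every library. Their part in the Thbs1 values was not tested.

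RNA counted upstream of Thbs1 was highest in another library than its exons. The 7 regions named for the start of Thbs1 lie within 120000 bp on mm9 chromosome 2 (117817500 to 117937499), are 3500 to 25500 bp long and cover 82.9% of that stretch. The nearest ends 159 bp before the annotated start of Thbs1, and none overlaps the gene. All 7 rose, beside 54.6% of all 1070 regions tested, and the way the authors chose regions means that the direction is not independent evidence. Over all regions the median log2 fold change was 1.37, and for these 7 it ran from 2.13 to 5.84.

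Summed over the 7 regions, counts were 253 and 76 in scrambled 1 and 2, then 2938 in sh1137 and 708 in sh830. In CPM these are 6.19 and 1.91 against 78.4 and 16.8. Here sh1137 was the highest library, where the exons of Thbs1 were highest in sh830. Within each group the intron-rich library had the higher sum, and this also held for all regions together. Their counts were 269392 and 170016 in scrambled 1 and 2, then 885842 in sh1137 and 398461 in sh830. Within the pairs of like intron share the sum was 12.7 times higher with sh1137 and 8.80 times higher with sh830. The region counts came to 24.3% and 5.24% of the Thbs1 exon counts in scrambled 1 and 2, to 203% with sh1137 and to 9.46% with sh830. They made up 0.0939% and 0.0447% of all region counts in the controls (95% Wilson intervals 0.0830 to 0.106% and 0.0357 to 0.0559%). With sh1137 the share was 0.332% (0.320 to 0.344%) and with sh830 0.178% (0.165 to 0.191%). The 7 regions thus also took a larger share of the counts of all regions in both hairpin libraries.

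**Figure D3:**
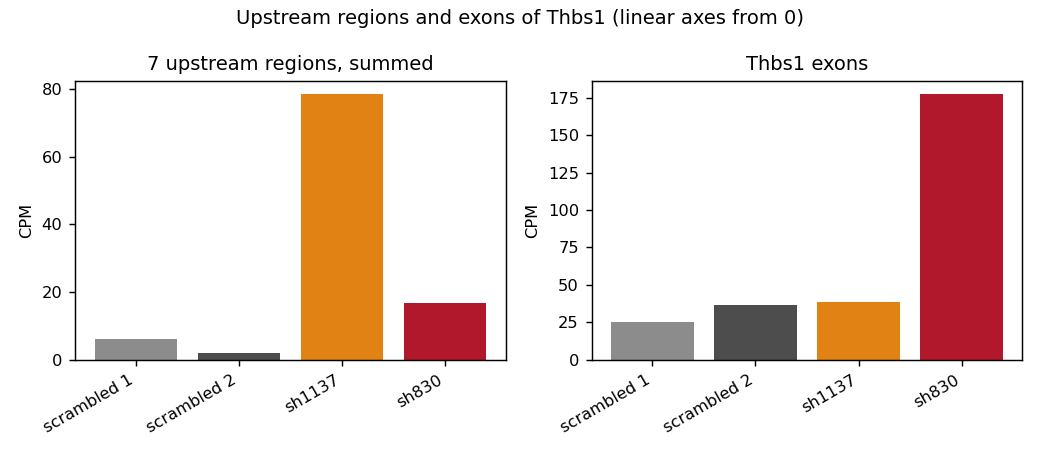
CPM (y axes, linear from 0) of the 7 regions upstream of Thbs1 summed (left) and of the Thbs1 exons (right) in scrambled 1, scrambled 2, sh1137 and sh830 (x axes), 1 bar for each library. The sum over the regions is highest with sh1137 at 78.4 CPM, and the exons are highest with sh830 at 177 CPM.

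The counts of the single regions show how little RNA the controls had there. The region next to the gene (117916500 to 117937499) had 42 and 10 counts in scrambled 1 and 2, then 628 in sh1137 and 179 in sh830, a rise of 4.04 ± 0.26 on the log2 scale (SE, adjusted p = 0.00425). The longest, 25500 bp from 117877000 to 117902499, had 41, 7, 635 and 138 counts in the same order and rose by 4.11 ± 0.27 (adjusted p = 0.00458). Between them, the region from 117904000 to 117914999 had 9, 1, 275 and 58 counts and rose by 5.16 ± 0.44 (adjusted p = 0.00636). It passed the filter on low counts through the hairpin libraries alone. In all 3, both hairpin libraries were above both controls, and sh1137 was above sh830.

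Farther from the gene the same order held. The region from 117865500 to 117874999 had 4 and 0 counts in the controls, 174 with sh1137 and 42 with sh830. Its fitted rise of 5.84 ± 0.64 on the log2 scale rests on those few control counts (adjusted p = 0.0100). This region too passed the filter on low counts through the hairpin libraries alone. The regions from 117850000 to 117863999 and from 117817500 to 117820999, the farthest, rose by 3.27 ± 0.29 (adjusted p = 0.00659) and 3.50 ± 0.36 (adjusted p = 0.00873). The farthest region, 3500 bp long and 116659 bp from the gene start, had 21, 9, 248 and 91 counts, the highest level per kilobase of the 7 in every library but scrambled 2. The smallest rise, 2.13 ± 0.41 (adjusted p = 0.0294), was in the region from 117828000 to 117842999, which had 82, 41, 522 and 109 counts. The 7 regions are neighbours and may hold reads of the same transcripts, so they are not separate observations.

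These calls depend on which libraries enter. With the group term alone they were all lost without scrambled 2 and without sh1137. Without scrambled 1 the calls of the regions from 117828000 to 117842999 and from 117817500 to 117820999 were lost as well. The log2 fold changes of the 7 regions were 2.99 to 9.81 without scrambled 1 and 3.22 to 6.49 without sh830. They were 2.08 to 4.84 without scrambled 2 and 0.76 to 4.25 without sh1137. All were higher in the hairpin libraries.

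**Figure D4:**
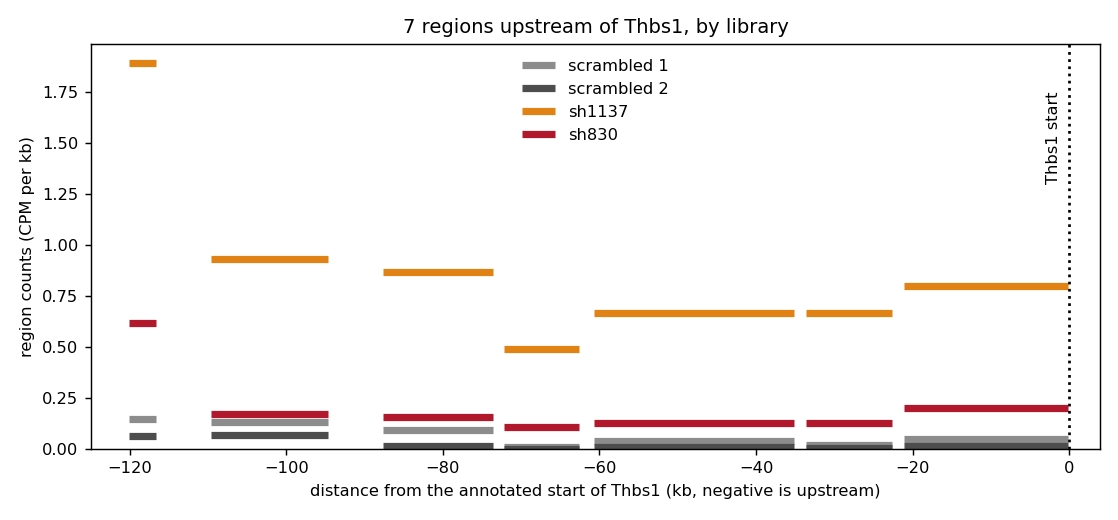
CPM per kb (y axis, linear from 0) of the 7 regions upstream of Thbs1, each drawn as a bar over its span by distance from the annotated start of the gene in kb (x axis, the dotted line is the start), in 1 colour for each library. The sh1137 bars are the highest in all 7 regions, sh830 follows, and the scrambled libraries lie below both.

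Whether introns and exons of a gene changed unequally was tested as an interaction for 5 of the genes. By edgeR's quasi-likelihood test 0 of them passed, beside 3.65% of 11772 genes tested (2.19% with a more positive log2 change in introns than in exons and 1.46% with a more negative one), and 0 of them had an unadjusted p under 0.05. The difference between intron and exon change was -0.52 ± 0.27 on the log2 scale for Thbs1 (adjusted p = 0.336), 0.02 for Plau, -0.08 for Plaur and -1.13 for Serpine2. The standard errors of Serpine2 and Serpinb2 were 0.90 and 0.70, on few intron reads. A missed threshold does not show that introns and exons changed alike.

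The tested genes next to the 6 loci were not called. Of 12 nearest neighbours, 9 were tested and 0 passed, beside 13.8% of all genes, with adjusted p-values of 0.0792 to 0.964. The lowest was that of Irgc1 beside Plaur, with a log2 fold change of 2.17. Irgc1 had 0.0978 and 0.100 CPM in scrambled 1 and 2, then 0.640 in sh1137 and 0.308 in sh830. It passed the filter on low counts through the hairpin libraries alone. Cadm4, on the other side of Plaur, stood at 1.12 (adjusted p = 0.200). Serpinb10, a serpin of blood cells that lies 3403 bp beyond Serpinb2 on the same strand, had 4.87 and 4.04 CPM in scrambled 1 and 2, then 5.20 in sh1137 and 7.99 in sh830. Its log2 fold change was 0.54 ± 0.29 (SE, adjusted p = 0.242), against 3.69 for Serpinb2. Serpinb7, on the other side, had 0.427 CPM with sh830 and 0 in the other 3 libraries and was not tested. Upstream of Thbs1 the next annotated gene was Rasgrp1, 769045 bp away, with at most 0.562 CPM and an adjusted p of 0.693. Camk2g, 42574 bp upstream of Plau and beyond its region, stood at a log2 fold change of -0.02 (adjusted p = 0.880), and Vcl on its other side at -0.17 (adjusted p = 0.358).

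Genes most like each of the 6 over the 4 libraries were found by the root-mean-square difference of log2 CPM, centred on each gene's mean, among 12015 genes with a mean of at least 1 CPM. With 4 libraries many profiles are alike, and the names are a description. Serpinb2 was nearest to Slc39a4, a zinc transporter (difference 0.350), whose CPM of 2.37, 5.47, 20.5 and 55.5 in scrambled 1, scrambled 2, sh1137 and sh830 climbed from the controls to sh830 as those of Serpinb2 did. Ccdc80 and Wfdc17 followed. Thbs1 was nearest to Pdlim1 (0.0895), Dlg5 and Pxdc1, and Serpine2 to Msrb3, Atp9a and Mmp2, the gelatinase A gene (0.217). Mmp2 had 0.562, 1.45, 1.09 and 6.37 CPM. Plau was nearest to C2cd3 (0.0166), Brpf1 and Slc1a5, Plaur to Cd247, Nsrp1 and Med26, and Plat to Amotl1, Nes and Cdkn2a.

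Other genes of plasminogen activation and its targets moved in both directions. Of 30 listed genes 20 were tested, 4 rose, 1 fell and 15 did not pass, so 25.0% were called beside 13.8% of all genes, with a median log2 fold change of 0.22 beside -0.01 over all genes. Mmp9, the gelatinase that plasmin can help activate, had 14.3 and 5.14 CPM in scrambled 1 and 2, then 39.9 in sh1137 and 65.4 in sh830, and rose by 2.53 ± 0.51 (SE, adjusted p = 0.0326). Without scrambled 2 and with the group term alone it missed the threshold (1.91, adjusted p = 0.211). Both hairpin libraries were above both controls. St14, the membrane protease matriptase, rose from 20.2 ± 1.87 to 30.2 ± 2.64 CPM (SD, n = 2 each; log2 fold change 0.58, adjusted p = 0.0409). Igf2r, a receptor that binds plasminogen and the urokinase receptor, fell from 475 ± 77.1 to 293 ± 31.2 CPM (log2 fold change -0.69, adjusted p = 0.0143).

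The other rises of that list were in genes of few counts. Mrc2, the collagen receptor also known as uPARAP, had 0, 16, 8 and 117 exon counts in scrambled 1, scrambled 2, sh1137 and sh830, and the groups overlapped (log2 fold change 3.04, adjusted p = 0.0371). Itga3, an integrin chain named after its value was seen because it completes the count, had 0.342, 0.477, 0.854 and 3.39 CPM (log2 fold change 2.14, adjusted p = 0.0482). Both were highest in sh830, as the sum of the stromal markers was, and the part of those cells was not tested. The most abundant genes that did not pass were Lrp1, the receptor that clears urokinase complexes with serpins (log2 fold change -0.35), and Itgam, the integrin chain Cd11b (0.14). With RLE factors 0 of the list rose and 1 fell, Mmp9 and Mrc2 missing the threshold at adjusted p-values of 0.0509 and 0.0527. Leaving out scrambled 1, scrambled 2, sh1137 or sh830, with the group term alone, left 1, 0, 2 and 1 rises and 0 falls.

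Among other serpins, 15 of 21 listed genes were tested, 3 rose, 0 fell and 12 did not pass, a share of 20.0% beside 13.8% of all genes (6.06% as rises), with a median log2 fold change of 0.54. All 3 belong to clade B, as Serpinb2 does, and all were near 1 CPM or a few. Serpinb12 had 0.293 and 0.502 CPM in scrambled 1 and 2, then 1.09 in sh1137 and 2.89 in sh830 (log2 fold change 2.24, adjusted p = 0.0279). Serpinb1b, a relative of the neutrophil elastase inhibitor, had 0.196, 0.401, 1.97 and 1.52 CPM (2.56, adjusted p = 0.0326). Serpinb9b had 1.17, 0.502, 3.12 and 3.77 CPM (2.11, adjusted p = 0.0383). In each, both hairpin libraries were above both controls. The most abundant that did not pass were Serpinb6a (log2 fold change 0.08) and Serpinb8 (0.55). Where genes of the list are near copies, reads could be shared between them. Without scrambled 1, scrambled 2, sh1137 or sh830, with the group term alone, 0 of the list rose, and 1 fell without sh830. That gene was Serpinh1, a collagen chaperone named after its values were seen, with 2, 212, 0 and 510 exon counts in scrambled 1, scrambled 2, sh1137 and sh830, highest in sh830 and next in scrambled 2, as Col1a1 and Col1a2 were.

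Coagulation factors and their receptors had 5 rises and 0 falls among 17 tested of 24 listed genes, a share of 29.4% beside 13.8% of all genes (6.06% as rises), with a median log2 fold change of 0.46. Thbd, thrombomodulin, which turns thrombin towards anticoagulation, had 15.3 and 10.3 CPM in scrambled 1 and 2, then 56.7 in sh1137 and 29.9 in sh830, and rose by 1.72 ± 0.13 (SE, adjusted p = 0.0053). F10, coagulation factor X, had 2.81, 1.58, 16.1 and 9.38 CPM and rose by 2.54 ± 0.20 (adjusted p = 0.0056). F5, its cofactor, had 4.50, 5.49, 11.9 and 13.3 CPM and rose by 1.34 ± 0.18 (adjusted p = 0.0141). In these genes both hairpin libraries were above both controls. Thbd and F10 were higher with sh1137 than with sh830, as the Thbs1 regions were. Both genes and those regions were also higher in scrambled 1 than in scrambled 2, so this order followed the intron-rich and intron-poor libraries. F7 (log2 fold change 1.50, adjusted p = 0.0327) and F9 (1.36, adjusted p = 0.0434) complete the 5 and were named after their values were seen.

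F13a1, the chain of factor XIII that macrophages make, was abundant and did not pass, with 270 and 149 CPM in scrambled 1 and 2, then 163 in sh1137 and 467 in sh830. Gas6, a ligand of the TAM receptors, did not pass either (log2 fold change 0.25). Endothelial markers, from the cells known for Thbd, summed to 116 and 90.8 CPM in the controls, 196 with sh1137 and 110 with sh830. Of the 4 tested, 3 rose, beside 6.06% of all genes. These were Cdh5 by 2.99 (adjusted p = 0.0056), Pecam1 by 2.87 (adjusted p = 0.0054) and Vwf by 0.56 (adjusted p = 0.0487) on the log2 scale. Kdr stood at -0.17. Their part in the values of Thbd and of the other genes of the list was not tested. Without scrambled 1, scrambled 2, sh1137 or sh830, with the group term alone, 2, 0, 0 and 2 genes of the list rose.

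The thrombospondin family and its receptors gave 1 rise and 0 falls among 17 tested of 18 listed genes, a share of 5.88% beside 13.8% of all genes, with a median log2 fold change of 0.50. Lrrc32, the cell surface anchor of latent TGF-beta, had 3, 7, 10 and 84 exon counts in scrambled 1, scrambled 2, sh1137 and sh830 (log2 fold change 2.94, adjusted p = 0.0385). It was again highest in sh830, and it passed the filter on low counts through the hairpin libraries alone. It missed the threshold with RLE factors (adjusted p = 0.0507), in DESeq2 with the library term (0.0915) and in every fit that left out a library with the group term alone, where the adjusted p was 0.091 without sh1137 and higher without each of the others. The 1 gene of the list that rose without sh1137 was Ltbp1, a latent TGF-beta binding protein named after its value was seen, and 0 rose without each of the others. Cd36, the macrophage receptor of thrombospondin-1, had 728 and 665 CPM in scrambled 1 and 2, then 243 in sh1137 and 519 in sh830. The groups did not overlap, and the log2 fold change of -0.97 ± 0.29 missed the threshold (adjusted p = 0.0760), while DESeq2 with the library term called it (adjusted p = 0.00022), as did edgeR with no filter on low counts (0.0389). Calr, a calcium-binding chaperone that also binds thrombospondin-1, stood at a log2 fold change of -0.36 (adjusted p = 0.0730) and was called as a fall by the same DESeq2 fit (0.021) and with no filter (0.0384).

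**Figure D5:**
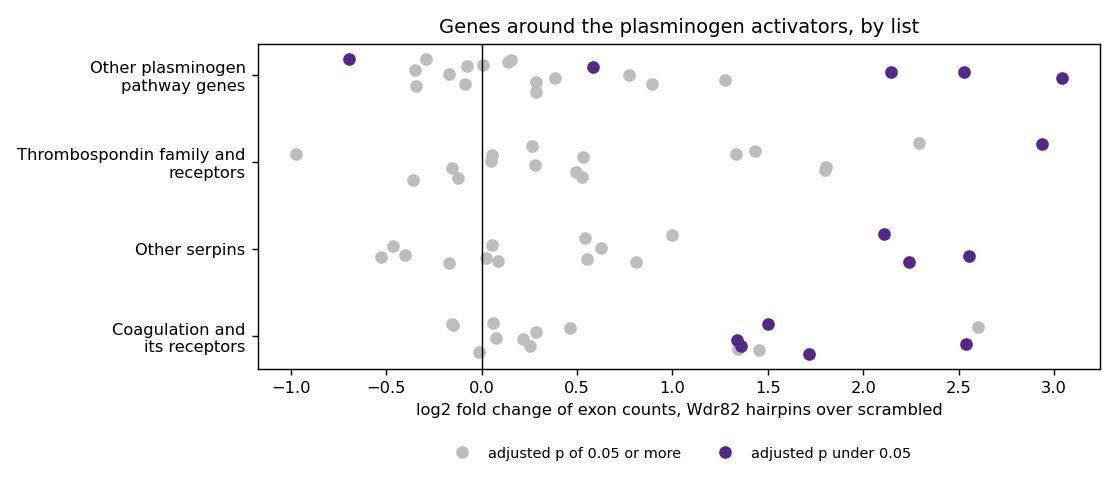
Log2 fold change of exon counts, Wdr82 hairpins over scrambled (x axis), for the tested genes of the 4 lists (rows), with dark points for an adjusted p under 0.05 and grey points for the others. Of the 4 lists, the plasminogen pathway has 4 rises and 1 fall, the thrombospondin list 1 rise, other serpins 3 rises and coagulation 5 rises.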

How the data were processed

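Ribosomal RNA-depleted total RNA of 4 libraries was used. The authors deposited raw counts of reads over exons and over introns of genes, not normalized, with a deposited annotation of mm9 coordinates. SICER, TopHat 1.3.1, Cuffdiff 2.1.1 and Cufflinks 2.1.1 are listed with mm9 in the submitters' processing notes. The tool that counted the reads and its use of strand are not given in the sources used here, so reads of overlapping genes or near copies could have been shared. The annotation's source field ties the regions to a SICER comparison of hairpin with vector libraries.

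Counts were fitted in edgeR 4.0.16 (R 4.3.3) with filterByExpr, TMM factors from the tested genes, a group term, a term for the intron-rich against the intron-poor pair of libraries, and quasi-likelihood tests in their legacy form. 1 residual degree of freedom remains, and the spread is moderated across genes. P-values were adjusted over all genes and regions, with a threshold of 0.05. Standard errors are the log2 fold change divided by the square root of F. Introns had factors of their own. The interaction fit had a term for each library, for interval type, and for interval type by library split. With 2 libraries a group, an exact permutation test has 0.333 as its smallest p, and shares are given as values with 95% Wilson intervals. A count of 0 was taken to allow up to 3 counts.

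Alternatives were other model terms, DESeq2 1.42.0, other factors and filters, edgeR's newer test (legacy off, chosen after seeing the data), and leaving out each library, where 3 libraries leave the group term alone and a lone library is assumed to vary like the other group. Scripts were tested on simulated data. The genes, lists, markers and library term were chosen with earlier results of these data known. Named genes were the 6, their regions and neighbours, up to 3 genes of each list in each direction by p, the 2 most abundant that missed the threshold, and the 3 nearest profiles (log2 of CPM plus 0.05). Gene identifiers matched a RefSeq symbol for 21615 of 21761 genes. Marker lists not named in the report were summed in CPM, in the order scrambled 1, scrambled 2, sh1137 and sh830. Neutrophil markers gave 16.9, 8.25, 14.5 and 3.98, and those of mast cell, basophil and eosinophil 0.318, 0.0753, 0.133 and 3.18. Lymphocyte markers gave 0.342, 0.351, 0.694 and 1.71, and osteoclast markers 19.0, 19.5, 41.7 and 23.8. Of these genes 1 passed, beside 13.8% of all genes tested. It was the osteoclast marker Ctsk, which rose (log2 fold change 2.71, adjusted p = 0.0187).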

Additional observations from a re-analysis of the deposited data

Results flagged for a closer look

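The hairpin libraries lay on opposite sides of their controls of like intron share for 2 of the 6 genes, and the difference between the hairpins was not tested. Plaur exons had a log2 ratio of -0.19 for sh1137 over scrambled 1 and of 0.12 for sh830 over scrambled 2. Plat exons, with 7 to 45 counts in a library, had a log2 ratio of -2.07 for sh1137 over scrambled 1 and of 0.77 for sh830 over scrambled 2.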

How the results depend on the processing

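No paired analysis was possible from the labels, because the Wdr82 libraries carry hairpin names and no replicate numbers, but the library term joins scrambled 1 with sh1137 and scrambled 2 with sh830 by their intron share and so acts as a pairing block. In edgeR with the group term alone 0 of the 6 genes passed in exons, 0 regions and 0 in introns, and with the crossed term 0 genes in exons, 0 regions and 1 gene in introns (Serpinb2, adjusted p = 0.0057). DESeq2 with the group term alone called 1 gene in exons (Serpinb2), 5 regions and 1 gene in introns (Serpinb2). Of all 1070 regions tested, 281 rose in that DESeq2 fit, and 67 rose with the crossed term in edgeR. The log2 fold change of Serpinb2 exons moved little, from 3.69 to 3.60 with the group term alone. In exons 1 of the 6 passed with upper-quartile factors, 1 with a filter of at least 1 CPM in 2 libraries and 4 with no filter. Introns passed for 2 genes with RLE factors and for 2 with no filter. Leaving out 1 library left a fit with the group term alone, and the calls of genes and regions did not hold in each such fit. Upper-quartile factors gave 1036 rises and 633 falls among all genes, against 841 and 1081. Exon factors on intron counts moved the median of all genes to 0.10 from -0.01. The causes were not tested.

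The sign turned for some values that were not called. With upper-quartile factors and with the 1 CPM filter, in this order, the log2 fold changes were 0.047 and 0.010 for Plaur, 0.062 and 0.025 for Camk2g, and 0.077 and 0.040 for Ikbkb. Leaving out 1 scrambled library gave ranges in exons of -0.36 to 0.35 for Plaur, -0.99 to 0.54 for Lrp1, -0.36 to 0.62 for Serpinb6a, -0.36 to 0.89 for Gas6, -0.13 to 0.11 for Camk2g and -0.097 to 0.10 for Ikbkb. In introns the range was -0.27 to 0.036 for Plaur. Leaving out sh830 gave 0.16 for Plaur, -0.18 for Serpine2, 0.068 for Lrp1, -0.31 for Serpinb6a, -0.34 for F13a1 and 0.065 for Ikbkb in exons, and 0.048 for Plaur, -1.31 for Serpine2 and -0.54 for Thbs1 in introns. Leaving out sh1137 gave 0.59 for Plat and 0.053 for Camk2g. Of 718 refitted single values over all alternatives, 530 kept direction and side of the threshold, 153 lost the call, 11 gained it and 24 changed sign. Of 36 untested ratios within the pairs of like intron share, 3 had the opposite sign to the fitted value: sh830 over scrambled 2 for Plat exons (0.77) and Plaur exons (0.12), and sh1137 over scrambled 1 for Serpine2 introns (-0.35). Another 3 moved by more than the spread between the pairs. Few counts lie behind Plat and the introns of Serpine2 and Thbs1, at 0 to 93 a library.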
